A study of Bos taurus with 27 samples.

Results

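In cattle (Bos taurus) embryos on day 15 of pregnancy, 1 gene, ENSBTAG00000039693, took on average 5.20% of all reads counted to genes. It was selected on its measured values, as the gene with the highest mean level over 27 embryos and with little change over embryo size, and it is 1 of 19994 Ensembl identifiers in each count file. Its mean level and its relation to size are therefore given as descriptions without a test. The files hold identifiers only, and the RefSeq gene table used here matched 0 of the 19994, so no gene name, protein, genome position or sequence can be given for it and its function is not described. Levels are read counts over all counts of the embryo, as a percentage or as CPM (counts scaled to a total of 1000000). A level per base of transcript was not computed, because no gene lengths were used here, so a long transcript and an abundant one cannot be told apart.

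Around this stage the cattle embryo has not yet attached to the uterine wall and lengthens from a small oval body into a filament. Most of that lengthening is growth of the trophectoderm, the outer layer that later contributes to the placenta, and of the endoderm that lines it. In a whole-embryo library, a larger share of 1 cell type and more of a transcript per cell cannot be told apart.

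Each library came from 1 embryo. Of the dams, some received an omega-3 diet and some an omega-6 diet. The embryos fell into 6 long and 10 short ones from omega-3 dams and 11 short ones from omega-6 dams. No long omega-6 embryo was among them. Titles add a size number of 0.4 to 20.3, whose unit is not stated, and a letter m (15 embryos) or f (12 embryos), read here as male and female. Dams and batches are not named, so embryos may share a dam, and each p-value reflects only how much the embryos at hand varied. Total counts ran from 17931620 to 29868584 per embryo, and those of ENSBTAG00000039693 alone from 663825 to 1559944. The widest exact (Clopper-Pearson) 95% interval of its share spanned 0.0105 percentage points to either side, so counting error was far below every difference between embryos given here. That interval covers counting error only. Trophectoderm and other cell type markers could not be checked without gene names.

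A pair of libraries stood out in these same data. Embryo 22, a short omega-6 embryo of letter m, stood apart: of 7603 genes with a mean of at least 10 CPM, 2750 lay below and 1222 above every other embryo there. Embryo 07, a long omega-3 embryo lettered f, went against its letter. It held 926 counts (41.1 CPM) of the gene that most exceeded f in m embryos, a level inside the range of the 15 embryos lettered m (10.5 to 78.1 CPM). In the remaining 11 f embryos the count of that gene never exceeded 4. Results that rest on either embryo are given with and without it.

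ENSBTAG00000039693 was the most counted gene in every one of the 27 embryos. Its share was 5.20% ± 0.69 (SD, n = 27), with a lowest value of 2.67%, a median of 5.35% and a highest value of 6.28%. The lowest values were those of embryo 22 (2.67%) and of the smallest embryo, 14 (4.36%), and the other 25 lay between 4.70% and 6.28%. Without embryo 22 the share was 5.30% ± 0.48 (SD, n = 26).

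The gene ranked 2 by mean CPM held 2.22% of the counts on average, so ENSBTAG00000039693 exceeded it 2.35-fold, and the gene ranked 3 held 1.73%. The choice thus fell between means of 5.20% and 2.22%. Inside single embryos the lead over the next gene varied more. It was smallest in long embryo 04 (5.20% against 3.94%, a 1.32-fold lead) and largest in the short omega-3 embryo 13 (5.44% against 1.29%, 4.23-fold). In long omega-3 embryos the lead was 1.32-fold to 1.81-fold, in short omega-3 embryos 1.48-fold to 4.23-fold, and in short omega-6 embryos 1.41-fold to 3.50-fold. The runner-up was the gene ranked 3 in all 6 long embryos. Among the 21 short embryos it was the gene ranked 2 in 8 embryos of the omega-3 diet and 7 of the omega-6 diet. The narrower lead in long embryos went with higher values of the runner-up, since the share of ENSBTAG00000039693 itself stayed between 4.72% and 5.41% there.

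**Figure D1:**
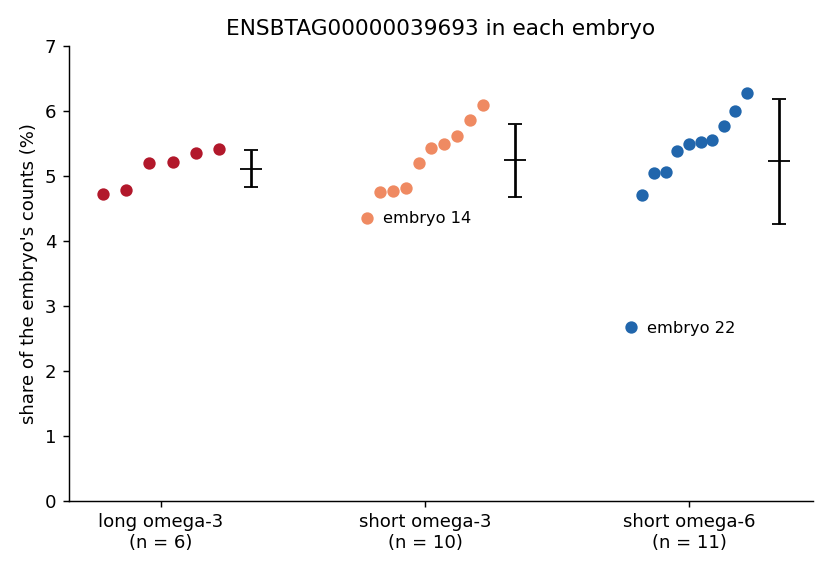
Share of each embryo's counts (%) taken by ENSBTAG00000039693, 1 point per embryo, sorted by value within each group; black marks give the mean and its SD. Long omega-3 embryos lay between 4.72% and 5.41%, and embryo 22, at 2.67%, was the lowest of all 27.

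By group the levels nearly coincided. Long omega-3 embryos had a lowest share of 4.72%, a median of 5.21% and a highest of 5.41% (mean 5.11% ± 0.29, SD, n = 6). Short omega-3 embryos had a lowest share of 4.36%, a median of 5.32% and a highest of 6.09% (5.24% ± 0.56, SD, n = 10). Short omega-6 embryos had a lowest share of 2.67%, a median of 5.49% and a highest of 6.28% (5.22% ± 0.96, SD, n = 11). All 3 groups overlapped. The order of the groups depended on the summary: short omega-3 was highest by mean and short omega-6 by median, and no neighbours in either order differed by more than their SD. Without embryo 22 the 10 other short omega-6 embryos averaged 5.48% ± 0.47 (SD), above the other groups by less than that SD. A level of 50000 CPM or more was reached by 4 of the 6 long omega-3 embryos, by 6 of the 10 short omega-3 embryos and by 9 of the 11 omega-6 embryos.

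Diet had no part in the choice of the gene and was tested. Among short embryos, log2 CPM averaged 15.67 in omega-3 embryos (n = 10) and 15.64 in omega-6 embryos (n = 11), a difference of 0.03 (two-sided permutation test, p = 0.891, the same after adjustment over 3 tests), which is not past the threshold. In edgeR's quasi-likelihood fit over all genes, with group and sex letter in the model and trimmed-mean (TMM) scaling, the log2 fold change of short omega-3 over short omega-6 was -0.04 ± 0.09 (SE, adjusted p = 0.845). Its unadjusted edgeR p was 0.666, and its 95% interval ran from 0.852-fold to 1.11-fold. The sign thus differed between the unscaled share and the TMM-scaled fit. The same fit called 0% of the 11919 genes tested (0 genes by edgeR, 0 by DESeq2 and 0 by limma-voom, with 1059 at an unadjusted edgeR p below 0.05). With the size number in the model and all 27 embryos, omega-3 over omega-6 gave -0.06 ± 0.09 (SE, edgeR adjusted p = 0.719, unadjusted 0.452). The 95% interval was 0.847-fold to 1.08-fold. There too 0% of the genes tested were called (0 by each of the same tools, with 1415 at an unadjusted edgeR p below 0.05). The size number reached 7.7 in omega-6 and 20.3 in omega-3 embryos, so above 7.7 this fit relied on 1 slope for both diets.

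The difference in unscaled share among short embryos turned to -0.07 without embryo 22 (permutation p = 0.287), and to -0.03 with TMM scaling and embryo 22 kept (permutation p = 0.727). The edgeR values, on TMM scaling, were negative with embryo 22 and also without it, at -0.10 ± 0.07 among short embryos and -0.13 ± 0.07 at equal size (SE, adjusted p = 0.923 and 0.975). None of these passed. The edgeR p-values without embryo 22 are adjusted over all genes tested, so they depend on the other genes as well.

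Embryos lettered m averaged 5.20% ± 0.90 (SD, n = 15) and those lettered f 5.21% ± 0.32 (SD, n = 12). The edgeR log2 fold change of m over f was 0.01 ± 0.08 (SE, adjusted p = 1), with a 95% interval of 0.894-fold to 1.13-fold, in a fit that called 0.386% of genes (46 of 11919). The permutation test on the unscaled share gave a difference of -0.03 (p = 0.849). Without embryo 07 the edgeR value was -0.003 (adjusted p = 0.9999), and without embryo 22 it was 0.06 (adjusted p = 0.919). The m embryos covered 2.67% to 6.28% and the f embryos 4.72% to 5.56%, so all f embryos lay within the range of m. Without embryo 22 the coefficient of variation was 10.9% in m embryos. It was 6.06% in f embryos, or 5.5% without embryo 07. That difference in spread was noticed in the data and was not tested.

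The spread differed in value between groups, and the difference between the short groups did not pass a test. The coefficient of variation was 5.70% in long omega-3 embryos. It was 10.6% in the short embryos of that diet and 18.4% in those of the omega-6 diet. The last fell to 8.58% without embryo 22, and short omega-3 embryos had 9.20% without embryo 14. The mean absolute deviation of log2 CPM from the group median was 0.13 in the short omega-3 group and 0.18 in the short omega-6 group (permutation p = 0.865). Without embryo 22 the difference, -0.05 log2 units over all short embryos, was 0.04 (permutation p = 0.325).

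Size was part of the choice, and its relation to the gene is a description. Over 5.67 doublings of the size number the log2 level changed by 0.01 ± 0.04 (SE) per doubling in unscaled CPM (Pearson r = 0.066, Spearman rho = -0.114, n = 27), and by 0.03 ± 0.03 (SE) in the edgeR model with diet and sex letter. Long over short omega-3 embryos gave a log2 fold change of -0.003 ± 0.11 (SE). The 9 smallest embryos averaged 5.22% ± 0.47, the 9 of middle size 5.31% ± 1.10 and the 9 largest 5.08% ± 0.33 (SD). With every embryo kept the slopes were 0.007 ± 0.02 (SE) in omega-3 and 0.04 ± 0.15 in short omega-6 embryos. They took opposite signs when embryo 14 was left out of omega-3 and embryo 22 out of omega-6. Within omega-3 embryos other than the smallest, the level was lower in larger embryos (-0.05 ± 0.03, SE, per doubling, r = -0.439, n = 15). Within short omega-6 embryos other than 22 it was higher in larger ones (0.09 ± 0.05, SE, r = 0.523, n = 10). Over both diets without embryos 14 and 22 the slope was -0.03 ± 0.02 (SE, n = 25).

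The choice did not use the difference of slopes between diets, which was tested in the 21 short embryos. The omega-3 slope minus the omega-6 slope was -0.005 ± 0.12 (SE) log2 units per doubling (edgeR adjusted p = 0.99), with a 95% interval of -0.25 to 0.24. The fit called 0% of 11534 genes (0 genes by edgeR and 1 each by DESeq2 and limma-voom, with 505 at an unadjusted edgeR p below 0.05). Without the smallest embryo the difference was -0.08 (adjusted p = 0.88). It was -0.02 without embryo 22 (adjusted p = 0.886). In unscaled CPM the short omega-3 slope without embryo 14 was -0.07 ± 0.05 (SE, n = 9). The short omega-6 slope without embryo 22 was 0.09 ± 0.05 (SE, n = 10). The difference with both embryos left out was not tested.

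**Figure D2:**
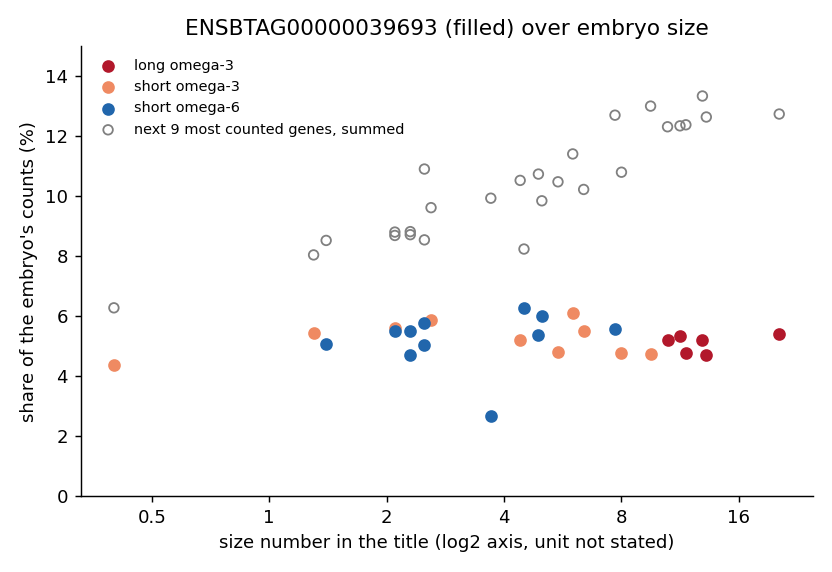
Share of counts (%) of ENSBTAG00000039693 (filled points, coloured by group) and of the next 9 most counted genes summed (open points) against the size number on a log2 axis. The summed share ran from 6.28% to 13.3% and was 12.3% to 13.3% in long embryos, while the single gene stayed between 4.36% and 6.28% in all embryos but 22.

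Embryos with the same size number showed how far the gene varied at equal size. Short omega-3 embryo 05 and short omega-6 embryo 20, both at 2.1, had 5.61% and 5.52%, a 1.02-fold difference. The short omega-6 embryos 18 and 19, both at 2.3, had 4.70% and 5.49% (1.17-fold), and the short omega-6 embryos 21 and 30, both at 2.5, had 5.77% and 5.04% (1.14-fold). Counting error amounted to at most 0.123% of the value in any embryo, so the gap of each pair exceeded it many times over.

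Against other abundant genes the steadiness of ENSBTAG00000039693 depended on embryo 22. Its coefficient of variation was 13.3% over 27 embryos and 9.07% over 26. The other 9 of the 10 most counted genes ranged from 9.81% to 65.3% over 27 embryos, and 3 of them had lower values than 13.3%, the genes ranked 5, 7 and 8. Over 26 embryos none of the 9 was lower, with 9.87% as their lowest. The gene ranked 3 ranged from 0.0973% to 3.94% of counts, while ENSBTAG00000039693 ranged from 2.67% to 6.28%. Among the 100 most counted genes its SD of log2 CPM (0.23) ranked 40 from the lowest, and without embryo 22 (0.13) it ranked 10. The medians of these 100 genes were 0.26 and 0.20. Among all 7603 genes of at least 10 CPM it ranked 2717 and, without embryo 22, 518. The biological coefficient of variation that edgeR assigned it was 14.9%, against a median of 21.98% over the 11919 genes tested. By this measure it ranked 2365 from the lowest among the genes tested. It ranked 22 among the 100 most counted genes, whose median was 20.4%. The choice favoured small changes over size, so these ranks describe the gene and test nothing.

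**Figure D3:**
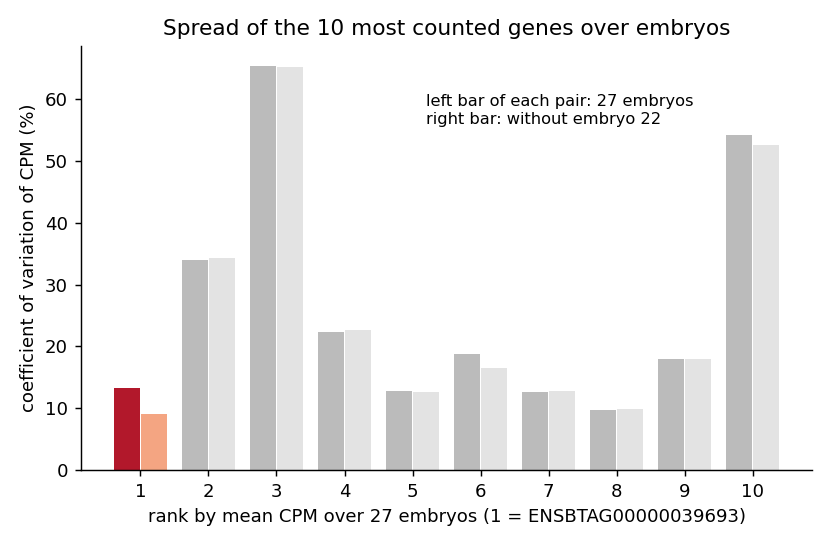
Coefficient of variation of CPM over embryos (%) for the 10 genes with the highest mean CPM, in order of rank; left bars use 27 embryos and right bars 26, without embryo 22. ENSBTAG00000039693 (red) stood at 13.3% and 9.07%, and the genes ranked 2, 3 and 10 varied most.

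Embryo 22 set the lower end of the range, which was 4.36% to 6.28% without it. It had 663825 counts of the gene in a total of 24905064, near the median total of 24349563, so low depth did not accompany the low share. Its share was 49.7% of the median of the other 26 embryos, and the lowest of those 26 had 1.63 times its level. On the log2 scale the gap to the median was -1.01. Among the 7603 genes, 1911 (25.1%) were as low or lower in embryo 22 relative to the other embryos, and among the 100 most counted genes 11 were. Of those 100 genes, 43 lay above and 17 below all other embryos in embryo 22. The TMM factor of embryo 22 was 0.773, the lowest of all, and with it the gene stood at 34479 CPM there, still the lowest of the 27 on that scale. Embryo 14 was next at 39905 CPM, and the highest was 61950 CPM. Embryo 25, the other short omega-6 embryo set apart in earlier analysis of these data, had 5.06%, 0.08 log2 units below the median of all embryos. With its TMM factor of 0.888 it stood at 56963 CPM, above the mean of all embryos on that scale (51885 CPM).

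The share also moved with depth by rank. Against the total count it had Pearson r = -0.30 (permutation p = 0.128, adjusted 0.257) and Spearman rho = -0.466 (permutation p = 0.0155, adjusted 0.031 over the 2 relations tested, n = 27). Without the 2 embryos farthest from the median total r was -0.271, so the linear relation did not pass either way. Without embryo 22 r was -0.432 (permutation p = 0.0278, not adjusted). Within omega-3 embryos r was -0.266 and rho -0.235 (permutation p = 0.316 and 0.378, n = 16). Within omega-6 embryos they were -0.329 and -0.627 (permutation p = 0.318 and 0.0442, n = 11), so the rank relation did not pass within omega-3 embryos. The part of depth in the comparisons above was not tested. Against the summed share of the next 9 most counted genes the relation was near 0 (r = 0.001, permutation p = 0.996; rho = -0.122, permutation p = 0.541; adjusted 0.996 and 0.541; r = -0.127 without the 2 farthest embryos). Within omega-3 and omega-6 embryos r was 0.016 and 0.008 (permutation p = 0.954 and 0.982). With a large gene in the total, every other gene's CPM depends on it: leaving it out would raise the CPM of all others by 1.03-fold in embryo 22 and by up to 1.07-fold elsewhere.

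The genes most like ENSBTAG00000039693 were ranked by Pearson r of log2 CPM over the 27 embryos among 7602 other genes of at least 10 CPM. These correlations describe libraries that share their totals and their embryos, and carry no p. The 10 highest r were 0.796 to 0.874 and the 10 lowest -0.834 to -0.768, with a median of 0.223 over all genes. All 10 of the first had their lowest value in embryo 22, and all 10 of the second had their highest there. Without embryo 22 the same genes had r of 0.18 to 0.535 and -0.638 to -0.302, and the median over all genes was 0.014. Of the 10 highest, 0 stayed among the 10 highest and 4 among the 100 highest.

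The closest of all was ENSBTAG00000014648, with 816 CPM on average. It held 487 CPM in embryo 22 and 783 to 893 CPM in the other 26 embryos. Its r was 0.874 over 27 embryos, 0.50 without embryo 22, and 0.789 on TMM-scaled CPM. Within omega-3 embryos r was 0.403, and within omega-6 embryos it was 0.966, or 0.687 without embryo 22. After diet, log2 size and sex letter were taken out it was 0.888, or 0.452 without embryo 22. The gene thus stayed in a narrow band in 26 embryos and was low in the same 1 embryo as ENSBTAG00000039693. The most opposed gene, ENSBTAG00000009414, had 285 CPM in embryo 22 and 155 to 214 CPM in the others (r = -0.834, and -0.478 without embryo 22). On TMM-scaled CPM without embryo 22 its r was -0.002, so no opposition was seen there.

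A second ranking, made after the weight of embryo 22 was seen, used the other 26 embryos. Its 10 highest r were 0.576 to 0.749 and its 10 lowest -0.744 to -0.654. ENSBTAG00000031950 came first, with 31.9 to 47.0 CPM in these 26 embryos and 32.6 CPM in embryo 22. Its r was 0.749 over 26 embryos and 0.644 over 27, 0.736 within omega-3 embryos, 0.715 within omega-6 embryos without 22, and 0.76 on TMM-scaled CPM without embryo 22. The values within diets and on TMM scaling use the embryos that chose this gene, so they are no separate check of its likeness. At the other end stood ENSBTAG00000004337, with 10.6 to 26.1 CPM in these embryos. It had r of -0.744 over 26 embryos and -0.453 over 27, -0.797 within omega-3 embryos, -0.56 within omega-6 embryos without 22, and -0.491 on TMM-scaled CPM without embryo 22. Of the 10 highest in this ranking, 10 were among the 100 highest on TMM-scaled CPM without embryo 22 and 8 among the 100 highest in omega-3 embryos. In omega-6 embryos without embryo 22, 4 were. Of the 10 lowest, 7 were among the 100 lowest on TMM-scaled CPM without embryo 22. In omega-3 embryos 9 of them were, and in omega-6 embryos without embryo 22, 2 were. These counts also reuse the embryos that made the ranking and only describe it. None of the 10 highest was among the 100 highest over all 27 embryos, and 3 of the 10 lowest had a positive r there.

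**Figure D4:**
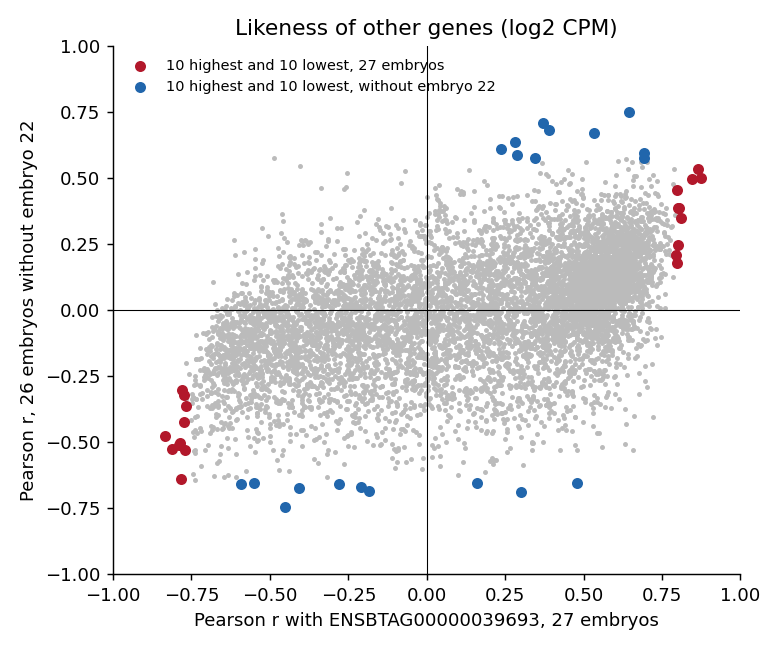
Pearson r of log2 CPM with ENSBTAG00000039693 for 7602 genes, over 27 embryos (x axis) and over 26 without embryo 22 (y axis). The 10 highest and 10 lowest by the first (red, 0.796 to 0.874 and -0.834 to -0.768) and by the second (blue, 0.576 to 0.749 and -0.744 to -0.654) were different genes.

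**Figure D5:**
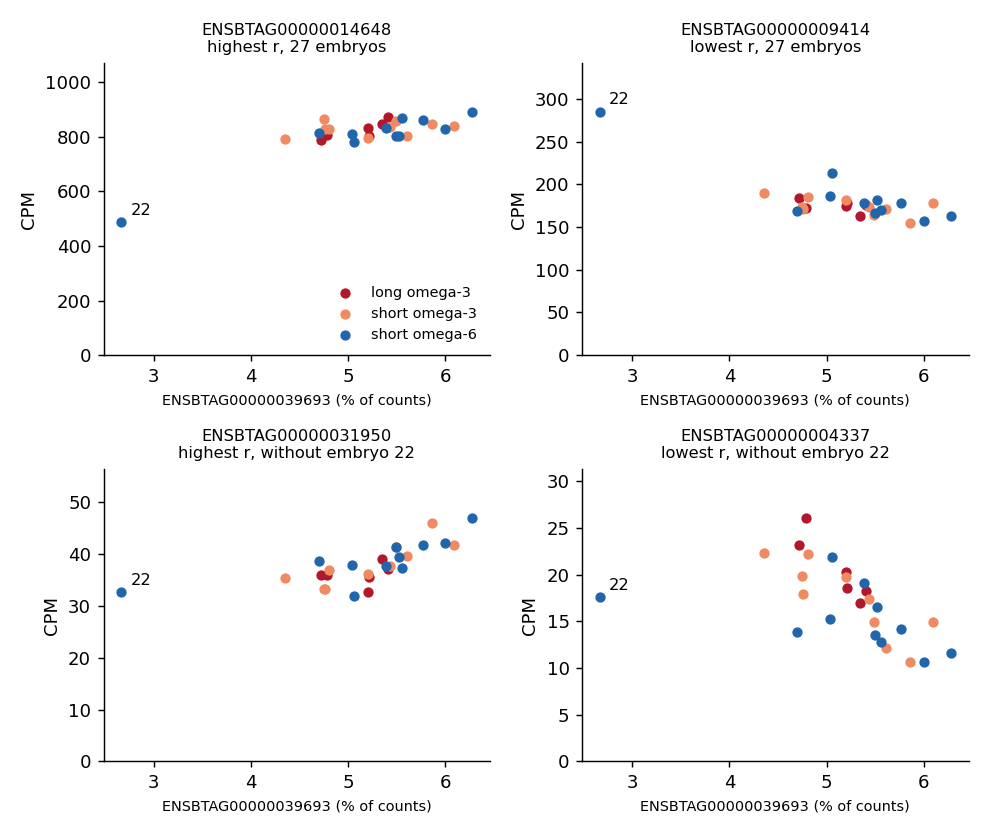
CPM of 4 genes against the share of counts (%) of ENSBTAG00000039693, 1 point per embryo, coloured by group, with embryo 22 marked. In the upper panels embryo 22 lies far from a compact cloud (487 and 285 CPM), while in the lower panels it lies inside the vertical range of the others (32.6 and 17.6 CPM).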

How the data were processed

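Libraries were stranded and polyadenylated-RNA selected, read as single reads of 100 bp per the labels' protocols. STAR and featureCounts are named in the submitters' processing notes; no version, genome build, annotation or strand setting is stated. The authors deposited unnormalised whole-number read counts per gene. The treatment of reads from near-identical copies or antisense genes is unknown, so the gene's counts may include or lack such reads. The quasi-likelihood test of edgeR 4.0.16 (R 4.3.3) was run after filterByExpr (minimum count 10, minimum total 15, minimum proportion 0.7), two-sided, with Benjamini-Hochberg adjustment over all genes and calls at 0.05. limma 3.58.1 and DESeq2 1.42.0 were alternatives. The edgeR test was tested on simulated counts. Permutation tests and correlations used 100000 resamples. Log2 CPM for correlations between genes used a prior of 0.5 counts. The genes named beside the chosen one are the extremes of each ranking by r. The gene, lists and tests were chosen with earlier results of these data known. No embryo number occurs in more than 1 group, so nothing was paired by embryo. Pairing by dam or batch was not possible, because neither is named.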

Additional observations from a re-analysis of the deposited data

How the results depend on the processing

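No test of level or spread passed in any of 61 alternatives, and none passed when each embryo was left out in turn. The 61 include fits without embryo 14, 07 or 22 alone, which recur among the fits that leave out each embryo. The smallest p of the 61 was 0.23, an unadjusted permutation p. The gene-level p-values among them were adjusted over all genes tested, so the 2 kinds are not on 1 scale. Signs of the small differences did turn. For diet among short embryos, the log2 difference in share was -0.033 with TMM scaling, -0.081 without embryos 22 and 25 and -0.068 without embryo 22 (-0.068 to 0.055 leaving out each embryo), and the edgeR value was 0.0032 on library totals (-0.10 to -0.008). Diet at equal size kept its sign (-0.13 to -0.0098). For m against f, the share differed by 0.038 without embryos 22 and 25 and 0.042 without embryo 22 (-0.047 to 0.042), and the edgeR value was -0.0030 without embryo 07 (-0.012 to 0.059). The spread difference was 0.041 without embryos 22 and 25 and 0.037 without embryo 22 (-0.071 to 0.037). The slope difference between diets was 0.0018 with DESeq2 size factors, 0.0018 with DESeq2 and 0.00086 without the sex letter (-0.080 to 0.028). The correlation with the total count had r = -0.424 without embryos 22 and 25 and -0.432 without embryo 22. The permutation p-values of 0.0348 and 0.0278 lay below 0.05 but were not adjusted over the 2 relations tested. The correlation with the next 9 genes was -0.123 without embryo 14 and -0.075 without embryos 22 and 25. It was -0.127 without the 2 farthest embryos and -0.052 without embryo 22. Apart from the embryos left out, the cause was not tested. Fits without embryo 22 alone were chosen after seeing the data. Between m and f, 46 genes were called, against 78 with DESeq2, 126 with limma-voom, 86 without embryos 22 and 25, 71 without embryo 07 and 72 without embryo 22. Counting error in the gene's own share was at most 0.123% of its value.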
